A study of Mus musculus with 4 samples.

Results

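The mouse genes that encode collagen chains were followed from WT to Calu-KO fibroblasts. They were taken as every protein-coding gene of the expression table whose symbol is Col, a type number, the letter a and a chain number, which yielded 44 genes among 54532 rows. RNA sequencing had been done on 4 libraries of cells labelled as primary fibroblasts of mouse lung. WT (genotype label Calu-WT, titles with the letters NC) and Calu-KO (genotype label Calu-KO, titles with the letters KD) had 2 libraries each. The sources used here give no treatment, animal age, strain, allele or targeting method, so whether the gene was deleted or knocked down is not known. Whether replicates were separate cultures or animals is likewise not stated, so every p-value measures only the spread between these libraries, which may be technical.

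Collagens are the main structural proteins of the extracellular matrix. Each chain carries long stretches in which glycine, the smallest residue, recurs with a period of 3, and chains with such stretches wind around each other into a rope-like helix inside the endoplasmic reticulum (ER), with the help of hydroxylases and chaperones. Fibroblasts export the molecules, trim their ends and assemble them: types I, III and V into fibrils, type IV into the sheet of basement membranes and type VI into beaded filaments. Calumenin, the product of Calu, is a calcium-binding protein of the ER and the secretory pathway. Fibrillar collagens, and types I and III above all, are the classic deposits of fibrotic lung.

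The repeat that defines the family was read for 4 chains that the results turn on, as the first 90 bases of the longest unbroken run of glycine codons with that period. The capitals mark the glycine codon (GGN) that opens each triplet, and the small letters are the codons after it, which can themselves code for glycine, as some do in Col3a1. The sequences are the coding strand of the GENCODE M21 principal transcripts, mm10, with introns left out. Col1a1 and Col1a2 encode the chains of type I collagen, Col3a1 the chain of type III and Col6a2 a chain of type VI.
Col1a1: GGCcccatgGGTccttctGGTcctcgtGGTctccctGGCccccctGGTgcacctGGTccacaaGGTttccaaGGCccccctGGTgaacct
Col1a2: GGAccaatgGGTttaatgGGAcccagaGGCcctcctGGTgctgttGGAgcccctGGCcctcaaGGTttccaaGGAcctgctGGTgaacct
Col3a1: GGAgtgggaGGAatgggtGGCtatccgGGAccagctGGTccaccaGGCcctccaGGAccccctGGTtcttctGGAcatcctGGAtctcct
Col6a2: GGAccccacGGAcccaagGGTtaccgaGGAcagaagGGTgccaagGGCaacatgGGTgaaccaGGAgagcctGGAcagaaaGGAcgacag
The stretch of Col1a1 lies at chr11:94939451-94939939 on the plus strand, that of Col1a2 at chr6:4512406-4515516 (plus), that of Col3a1 at chr1:45323762-45325413 (plus) and that of Col6a2 at chr10:76611948-76613290 (minus). The shared period of glycine follows from how the stretches were chosen, whereas the codons between differed. The run went on for 338 glycine triplets in Col1a1, 339 in Col1a2 and 344 in Col3a1, which is nearly the whole helix of a fibrillar chain. It ended after 87 triplets in Col6a2 and in Col6a1, after 45 in Col6a3 and after 40 in Col4a1. Across the 44 genes the longest run ranged from 23 triplets (Col26a1) to 344 (Col3a1).

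The 4 libraries held 15635448 to 16510048 reads. Calu was at 177.9 and 177.3 FPKM (fragments per unit of gene length and sequencing depth) in WT replicates 1 and 2, and at 14.9 and 10.9 FPKM in Calu-KO. Both Calu-KO libraries were far under both WT libraries, with a log2 change of -3.70 ± 0.17 (SE) and an adjusted p of 0.00493 (limma). Of 9 fibroblast markers, 5 were tested, among them Vim and Fn1. Their summed level, mostly Vim, was 907.6 to 914.7 FPKM in WT and 769.7 to 940.4 in Calu-KO. Fn1 had 154.6 and 153.6 FPKM in WT and 90.2 and 119.9 in Calu-KO (adjusted p 0.137). Pdgfrb had 30.8 and 29.7 FPKM in WT and 18.6 and 25.9 in Calu-KO (adjusted p 0.210). Vim, S100a4 and Pdgfra had overlapping groups. Dcn and Lum had no reads, and Thy1 and Fap were near 0. Of 6 transcription factors of lung mesenchyme, 1 (Gli1) was tested and Tbx4 and Tcf21 had no reads, so the lung origin rests on the labels. Epithelial and endothelial markers summed to 1.02 FPKM or less in every library, with 3 of the 5 genes of each list at 0. Mesothelial markers, nearly all Msln, summed to 30.4 to 33.1 FPKM in WT and 22.5 to 25.3 in Calu-KO, and leukocyte markers, nearly all Cd68, to 4.36 to 4.83 and 2.40 to 2.78. Neither list had a called gene. Smooth muscle and pericyte markers summed to 50.2 to 50.8 FPKM in WT and 37.0 to 53.0 in Calu-KO, with 2 of 6 genes at 0. Of the 2 tested, Cspg4 had 36.7 and 34.5 FPKM in WT and 30.1 and 45.2 in Calu-KO, with overlapping groups. Des, the muscle filament protein desmin, fell from 14.0 and 15.6 FPKM (WT) to 6.81 and 7.86 FPKM (Calu-KO). Its log2 change was -0.92, with an adjusted p of 0.0412. With a filter of 0.1 FPKM its adjusted p was 0.0696 (limma), and its log2 change stayed between -1.02 and -0.83 under 13 alternatives. Calu-KO replicate 2 differed from the others, with 4.0% mitochondrial reads against 2.43% to 2.53%, and 18739 genes with a read against 19772 to 20477. Its FPKM also implied a library size of 1.46e+07, under its 16038560 reads. In the others that size was 1.64e+07 to 1.69e+07, above their reads. The FPKM of Calu-KO replicate 2 are thus higher against the others than with scaling by total reads. For tested collagen genes whose result moved without 1 Calu-KO library, log2 changes without each Calu-KO library are given. Such values are not given for marker and partner genes. The part of the mitochondrial reads and of the number of genes with a read was not tested.

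Collagen genes took a similar part of the reads in every library, and 1 collagen gene, Col3a1, passed the test. Their share of all reads was 1.004% and 0.966% (WT) and 1.009% and 1.06% (Calu-KO). Genes were tested where their level averaged 1 FPKM or more across libraries, which 17 of the 44 genes did. Col3a1 was the 1 gene of these 17 (5.88%) past the threshold of 0.05, and it fell in Calu-KO. Of all 11885 genes tested, 329 (2.77%) were called, 112 of them higher (0.942%) and 217 lower (1.83%). The tested collagen genes had a median log2 change of -0.08, against 0.01 for all tested genes, and 7 of the 17 changes were above 0. At an unadjusted p under 0.05 stood 5 of the 17, and 24.8% of all tested genes. In 12 of the 17 (70.6%) the WT and Calu-KO values did not overlap, 5 with Calu-KO higher and 7 with Calu-KO lower. Among all tested genes that share was 61.6% (32% higher and 29.7% lower), so it is not a result about collagens. With 2 libraries against 2, an exact permutation test of 1 gene cannot go below a two-sided p of 0.33, and the adjusted p-values below come from limma fitted over all tested genes.

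**Figure D1:**
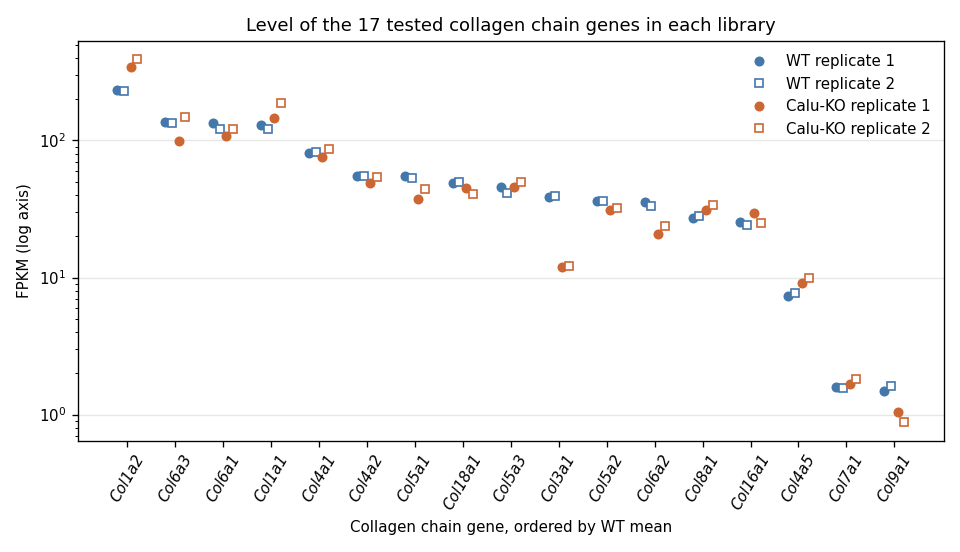
FPKM (log axis) of the 17 tested collagen chain genes in each of the 4 libraries, 2 WT and 2 Calu-KO, ordered by the WT mean, 1 point per library. Col1a2 lies above all others in every library, and the Calu-KO points of Col3a1, at 11.9 and 12.2 FPKM, lie apart from the WT points at 38.9 and 39.4.

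In WT the levels of the 17 genes spanned a wide range. Col1a2 was highest at 233.9 and 229.3 FPKM, followed by Col6a3 at 136.9 and 134.7 FPKM. Col1a1 (130.0 and 121.0 FPKM) and Col6a1 (133.6 and 120.5 FPKM) came next, and their ranges overlapped. Col4a1 followed at 81.0 and 81.9 FPKM. Col4a2 and Col5a1 then overlapped, between 53.4 and 55.3 FPKM. Col18a1, Col5a3, Col3a1, Col5a2 and Col6a2 lay from 49.5 down to 33.4 FPKM. Below them were Col8a1, Col16a1 and Col4a5, and last Col7a1 and Col9a1, whose ranges overlapped at 1.48 to 1.60 FPKM. The order rests on the gene length the authors divided by, which was 2.32 times the principal transcript for Col1a2 (12426 bases), 2.11 times for Col6a2, 1.76 times for Col3a1 and 1.11 times for Col1a1. A comparison of 1 gene between libraries does not depend on it.

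The WT libraries lay closer together than the Calu-KO libraries. The median gap between replicates, over the 17 genes, was 0.04 in WT and 0.15 in Calu-KO on the log2(FPKM + 1) scale. In 16 of the 17 the Calu-KO gap was the wider one, Col5a3 being the exception. All tested genes did the same, with median gaps of 0.08 and 0.24.

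Col3a1 encodes the only chain of type III collagen, a fibrillar collagen of elastic tissues such as lung and vessel wall. It stood at 38.9 and 39.4 FPKM in WT replicates 1 and 2, and at 11.9 and 12.2 FPKM in Calu-KO. Both Calu-KO libraries were below both WT libraries, and the replicates of each group nearly coincided. The mean was 39.1 ± 0.334 FPKM (SD, n = 2) in WT and 12.03 ± 0.178 in Calu-KO, a 3.25-fold lower level. Its log2 change was -1.62 ± 0.10 (SE), with an adjusted p of 0.0115. Of all tested genes, 67 had a lower log2 change. Its rank among all rows went from 1324 and 1320 in WT to 4651 and 4589 in Calu-KO. Without WT replicate 1 the log2 change was -1.63, and without WT replicate 2 it was -1.62. The p-values of these fits are not given, because the lone WT library is then taken to vary like the Calu-KO pair. With no filter on low values the adjusted p was 0.0797, and 0 of the 24462 genes then tested were called. The log2 change itself stayed between -1.73 and -1.61 under 13 alternatives. The summed mesothelial and leukocyte markers, Des, Fn1 and Pdgfrb were also lower in both Calu-KO libraries, whereas Vim, S100a4, Pdgfra and Cspg4 had overlapping groups. The part of the cells behind these markers in the Col3a1 values was not tested.

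The genes of type I collagen, the most abundant collagen of fibrous tissue, had higher values in Calu-KO, but neither passed the test. Col1a2 stood at 233.9 and 229.3 FPKM in WT and at 343.5 and 394.2 FPKM in Calu-KO. Its values did not overlap between groups, and the Calu-KO libraries differed more from each other than the WT libraries did. The means were 231.6 ± 3.22 and 368.8 ± 35.9 FPKM (SD, n = 2), a ratio of 1.59. The log2 change was 0.67 ± 0.13 (SE), with an adjusted p of 0.0721. With limma voom on reads recovered from the FPKM, an alternative chosen after the data were seen, the adjusted p was 0.0499. That fit called 1 collagen gene higher (Col1a2) and 2 lower (Col3a1 and Col6a2) of the 17, against 3.04% higher and 3.95% lower among all its genes. The log2 change of Col1a2 was 0.76 without Calu-KO replicate 1 and 0.57 without Calu-KO replicate 2. In these 2 fits the spread comes from the WT pair alone, and the lone Calu-KO library is taken to vary like that pair. Their p-values are therefore not given.

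Col1a1, the other chain of type I, stood at 130.0 and 121.0 FPKM in WT and at 146.0 and 187.9 FPKM in Calu-KO. The groups did not overlap, but the gap within Calu-KO was wider than that between Calu-KO replicate 1 and the WT libraries. Its log2 change was 0.40 ± 0.16 (SE), with an adjusted p of 0.208. The log2 change was 0.58 without Calu-KO replicate 1 and 0.22 without Calu-KO replicate 2. Among all rows, Col1a2 ranked 136 and 143 in WT and 72 and 62 in Calu-KO. Markers of cartilage and bone cells, which also make fibrillar collagens, summed to 11.3 to 12.4 FPKM in WT and 19.2 to 19.5 in Calu-KO. Runx2 made most of these sums, at 7.53 and 8.02 FPKM in WT and 13.9 and 14.4 FPKM in Calu-KO. Sox9 (adjusted p 0.244) and Comp also had higher values, whereas Sp7, Bglap and Matn1 had overlapping groups. Of the 7 genes 2 were tested, Sox9 and Runx2. Runx2, a transcription factor of bone and hypertrophic cartilage, was called higher (log2 change 0.79, adjusted p 0.0412). With a filter of 0.1 FPKM its adjusted p was 0.0665 (limma), and its log2 change stayed between 0.69 and 0.87 under 13 alternatives. Acan, the main proteoglycan of cartilage, was near 0. The part of these cells in the collagen values was not tested.

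Type V collagen joins type I within fibrils and limits their width. Col5a1 stood at 55.3 and 53.4 FPKM in WT and at 37.6 and 44.2 FPKM in Calu-KO. All Calu-KO values were under the WT values. The log2 change was -0.41 ± 0.13 (SE), with an adjusted p of 0.146. The log2 change was -0.29 without Calu-KO replicate 1 and -0.52 without Calu-KO replicate 2. Another gene, Gm13372, overlaps Col5a1 on the opposite strand at 3.98 to 8.40 FPKM, and whether reads were counted by strand is not given in the sources used here. Col5a2 stood at 36.0 FPKM in both WT libraries and at 31.0 and 32.2 FPKM in Calu-KO, with an adjusted p of 0.318. Both Calu-KO values were lower. Col5a3 stood at 45.9 and 41.3 FPKM in WT and at 45.7 and 49.4 FPKM in Calu-KO. Its groups overlapped (adjusted p 0.534).

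Type VI collagen forms beaded filaments around cells, in its common form from the chains of Col6a1, Col6a2 and Col6a3 together. Of its 3 tested genes 0 passed. Col6a2 stood at 35.8 and 33.4 FPKM in WT and at 20.8 and 23.9 FPKM in Calu-KO. The groups did not overlap. The means were 34.6 ± 1.66 and 22.4 ± 2.21 FPKM (SD, n = 2), and WT was 1.55 times Calu-KO. The log2 change was -0.61 ± 0.12 (SE), with an adjusted p of 0.0775, and 0.0427 by voom. The log2 change was -0.51 without Calu-KO replicate 1 and -0.71 without Calu-KO replicate 2.

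The partner chains of Col6a2 had overlapping groups. Col6a1 stood at 133.6 and 120.5 FPKM in WT and at 108.2 and 122.2 FPKM in Calu-KO (log2 change -0.14 ± 0.13, adjusted p 0.512). Col6a3 stood at 136.9 and 134.7 FPKM in WT and at 99.2 and 147.2 FPKM in Calu-KO. The Calu-KO libraries lay on both sides of WT. Without Calu-KO replicate 1 the log2 change was 0.12, and without Calu-KO replicate 2 it was -0.45. Both libraries together gave -0.17 ± 0.21 (SE), with an adjusted p of 0.632.

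Type IV collagen is the network of basement membranes, and Col4a1 and Col4a2 encode its common form. Col4a1 stood at 81.0 and 81.9 FPKM in WT and at 75.5 and 87.1 FPKM in Calu-KO. The groups overlapped, and the log2 change was -0.01 ± 0.12 (SE), with an adjusted p of 0.976. Col4a2 stood at 55.3 and 54.6 FPKM in WT and at 49.2 and 54.5 FPKM in Calu-KO (adjusted p 0.661), and its groups were separated by less than the gap within either. Col4a5, a chain of a basement membrane form best known from kidney, stood at 7.30 and 7.68 FPKM in WT and at 9.09 and 9.85 FPKM in Calu-KO. Its groups did not overlap, and the log2 change was 0.30 ± 0.11 (SE), with an adjusted p of 0.191. Without Calu-KO replicates 1 or 2 the log2 change was 0.35 or 0.25. The product of Col18a1 lies in basement membranes and releases the fragment endostatin. Col18a1 stood at 49.2 and 49.5 FPKM in WT and at 45.0 and 41.0 FPKM in Calu-KO (log2 change -0.20, adjusted p 0.316). Without Calu-KO replicates 1 or 2 the log2 change was -0.26 or -0.13. Both Calu-KO values were lower. Col18a1 overlaps Slc19a1, a folate carrier gene on the opposite strand, at 13.8 to 17.3 FPKM.

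The remaining tested genes encode collagens of other forms, and 0 of these 4 passed. Col8a1, of the short-chain network collagen of vessel wall and eye, stood at 27.4 and 28.2 FPKM in WT and at 31.3 and 33.7 FPKM in Calu-KO. Its groups did not overlap, with a log2 change of 0.22 ± 0.11 (SE) and an adjusted p of 0.267. Without Calu-KO replicates 1 or 2 the log2 change was 0.27 or 0.17. Col16a1, a fibril-associated collagen, had 25.2 and 24.0 FPKM in WT and 29.5 and 24.9 FPKM in Calu-KO, with overlapping groups (adjusted p 0.525). Col7a1, of the anchoring fibrils under epithelia, had 1.59 and 1.56 FPKM in WT and 1.68 and 1.82 FPKM in Calu-KO (adjusted p 0.715). Col9a1, a fibril-associated collagen of cartilage, had 1.48 and 1.60 FPKM in WT and 1.05 and 0.878 FPKM in Calu-KO (log2 change -0.37 ± 0.17, adjusted p 0.245). Neither Col7a1 nor Col9a1 had overlapping groups, Calu-KO being higher in the former and lower in the latter. Col9a1 met the condition for testing through its WT values, since its Calu-KO mean was 0.964 FPKM.

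**Figure D2:**
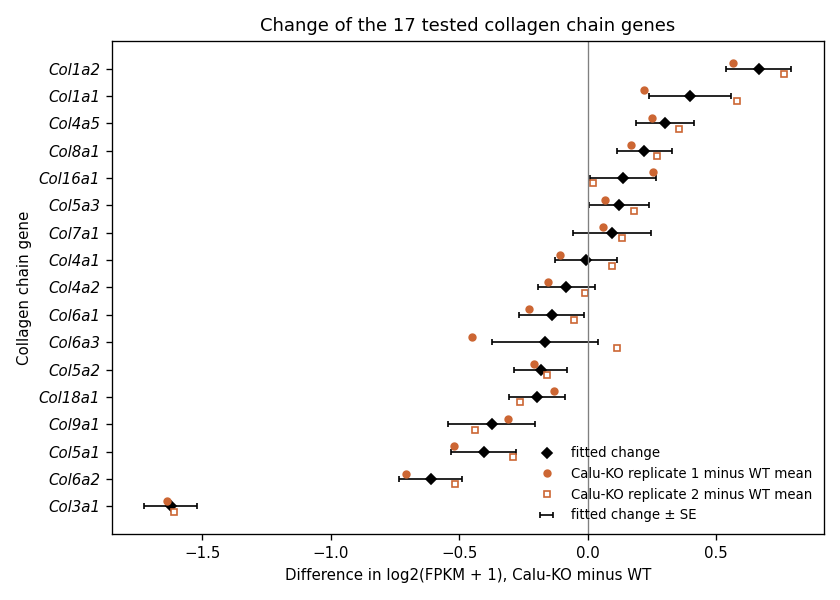
Difference in log2(FPKM + 1) between Calu-KO and WT for the 17 tested collagen chain genes, with the fitted change and its SE (black) and each Calu-KO library minus the WT mean (orange circles, replicate 1; open squares, replicate 2). Both Calu-KO libraries of Col3a1 lie near -1.62, whereas those of Col6a3 lie at -0.45 and 0.12 on both sides of 0.

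With the deposited gene lengths, the summed collagen level overlapped between the groups, while the shares of several chains did not. The summed FPKM of all 44 genes was 1098 and 1061 in WT and 1088 and 1269 in Calu-KO, or 1079 ± 26.5 and 1179 ± 127 (SD, n = 2). Col1a1 and Col1a2 together made 33.1% and 33.0% of that sum in WT, and 45.0% and 45.9% in Calu-KO. These shares did not overlap, and the gap between groups was wider than that within them. Col1a2 alone made 21.3% and 21.6% in WT and 31.6% and 31.1% in Calu-KO. Col3a1 made 3.54% and 3.71% in WT and 1.09% and 0.958% in Calu-KO. The share of a chain can move through other chains, and these shares were not tested. With the deposited lengths but scaling by total reads, the sum was 1150 and 1099 in WT and 1115 and 1156 in Calu-KO, which overlapped. With principal transcript lengths the sum was 1626 and 1577 in WT and 1709 and 1982 in Calu-KO, without overlap. The Col1a2 share was then 33.4% and 33.8% in WT and 46.7% and 46.2% in Calu-KO. The size of a share thus depends on gene length, and the sum on gene length and library scaling. The share of all reads, with no division by length, did not overlap either.

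By class, the fibrillar collagens (11 genes, 6 tested) took 49.2% and 49.1% of the collagen FPKM in WT and 56.6% and 56.8% in Calu-KO. Type VI (6 genes, 3 tested) took 27.9% and 27.2% in WT and 20.97% and 23.1% in Calu-KO. Type IV (6 genes, 3 tested) took 13.1% and 13.6% in WT and 12.3% and 11.9% in Calu-KO. These shares did not overlap between groups in any of the 3 classes. The summed FPKM itself overlapped for type VI (306.4 and 288.7 in WT, 228.3 and 293.3 in Calu-KO). It also overlapped for type IV (143.8 and 144.2 in WT, 133.9 and 151.5 in Calu-KO). For the fibrillar collagens it did not (540.6 and 520.9 in WT, 616.1 and 720.2 in Calu-KO). The 27 genes under 1 FPKM together made 0.113% to 0.299% of the sum.

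**Figure D3:**
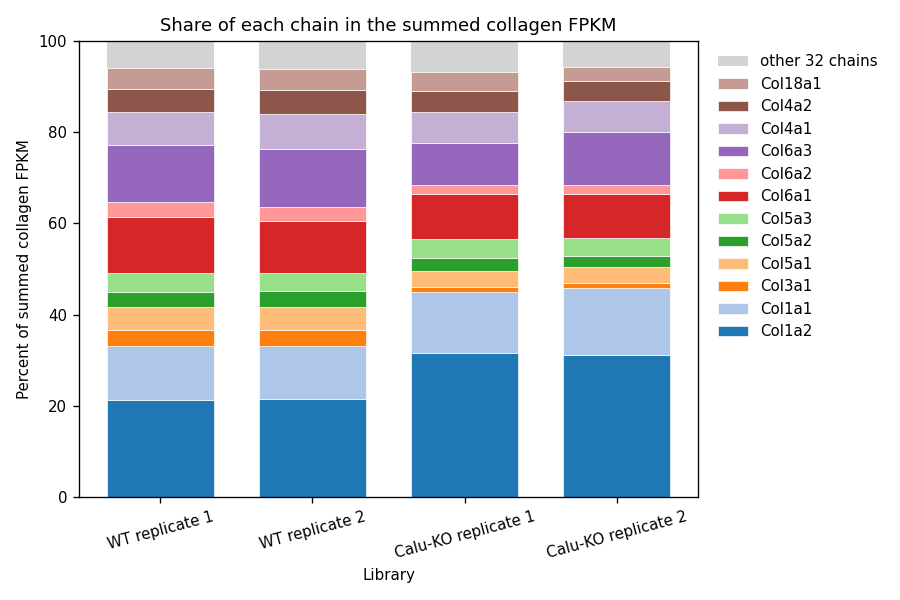
Percent of the summed collagen FPKM taken by each chain in each library, stacked to 100, with the other 32 chains together in grey. The Col1a2 segment grows from 21.3% and 21.6% in WT to 31.6% and 31.1% in Calu-KO, and the Col3a1 segment shrinks from 3.54% and 3.71% to 1.09% and 0.958%.

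Ratios within a library cancel its scaling. The ratio of Col3a1 to Col1a1, the chains of the main fibrillar collagens of lung, was 0.299 and 0.325 in WT and 0.0815 and 0.0647 in Calu-KO. The ratio of Col6a1 to Col6a2 was 3.73 and 3.60 in WT and 5.20 and 5.11 in Calu-KO. In both, the gap between groups was wider than the gap between replicates. The ratio of Col1a2 to Col1a1 was 1.80 and 1.89 in WT and 2.35 and 2.10 in Calu-KO. It was higher in Calu-KO, although type I collagen takes more of the Col1a1 chain than of the Col1a2 chain. The ratio of Col4a1 to Col4a2 was 1.47 and 1.501 in WT and 1.53 and 1.60 in Calu-KO. The ratio of Col5a1 to Col5a2 was 1.54 and 1.48 in WT and 1.21 and 1.37 in Calu-KO. The ratio of Col6a1 to Col6a3 was 0.976 and 0.894 in WT and 1.09 and 0.830 in Calu-KO, and its groups overlapped. These ratios were described and not tested. The size of a ratio depends on gene length: with principal transcript lengths, Col1a2 to Col1a1 was 3.78 and 3.98 in WT, and Col6a1 to Col6a2 was 1.89 and 1.83. The comparison between groups does not depend on it.

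**Figure D4:**
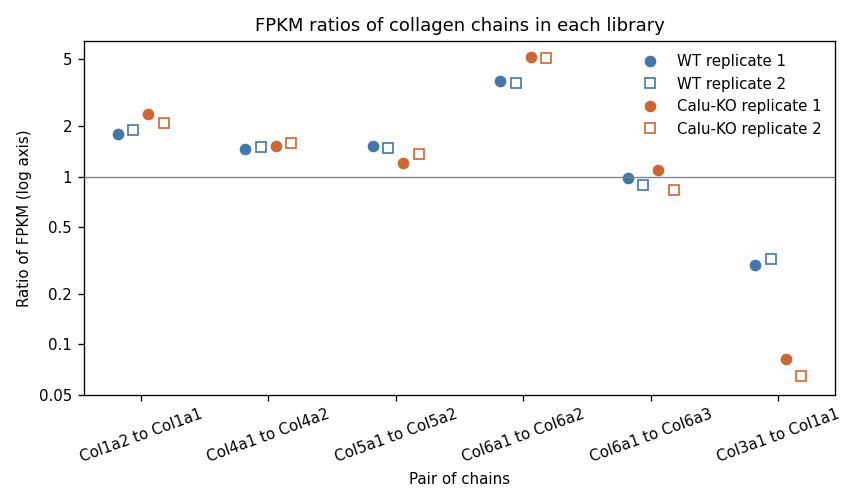
Ratio of FPKM (log axis) of pairs of collagen chains in each library, with the grey line at 1. The Calu-KO points lie below the WT points for Col3a1 to Col1a1 (0.0815 and 0.0647 against 0.299 and 0.325) and above them for Col6a1 to Col6a2 (5.20 and 5.11 against 3.73 and 3.60).

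Of the 27 genes under 1 FPKM, 17 had 10 or more reads over the 4 libraries, 6 had 1 to 9 and 4 had none. Col11a1, Col13a1, Col4a6 and Col9a2 were the 4 with no reads. Col10a1, Col19a1, Col24a1, Col25a1, Col6a5 and Col6a6 were the 6 with few reads. Reads below are those recovered from the FPKM, in the order WT replicates 1 and 2, then Calu-KO replicates 1 and 2, and intervals are exact 95% binomial intervals that cover counting error only. Ratios and floors are scaled by the library sizes that the FPKM imply, so they differ slightly from the ratio of raw reads.

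Col15a1, whose product lies between basement membrane and fibrils, had read counts of 37 and 36 (WT) and of 7 and 3 (Calu-KO). The groups did not overlap, and the scaled ratio of WT to Calu-KO was 6.98 (3.59 to 15.2). By voom on genes with at least 10 reads its log2 change was -2.76, with an adjusted p of 0.0420. That fit tested 34 collagen genes and called 1 higher (Col1a2) and 3 lower (Col3a1, Col6a2 and Col15a1), against 2.69% higher and 3.91% lower among all its genes. By limma on FPKM with a filter of 0.1 FPKM, the adjusted p of Col15a1 was 0.214. Of the 24 collagen genes tested there, Col3a1 was the 1 called, against 0.728% of all genes.

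Col23a1, a membrane-spanning collagen, had read counts of 12 and 9 (WT) and no reads in either Calu-KO library. The interval of its scaled ratio of WT to Calu-KO started at 4.98. With 3 reads as the floor over the Calu-KO group, the ratio was 6.69. Its adjusted p by voom was 0.0537. Col11a2, a minor fibrillar chain of cartilage, had read counts of 59 and 44 (WT) and of 37 and 4 (Calu-KO). Both Calu-KO values were lower, but they differed widely from each other. Col20a1, a fibril-associated collagen, had read counts of 49 and 30 (WT) and of 27 and 7 (Calu-KO).

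Col12a1, a fibril-associated collagen of tendon and other dense tissue, had read counts of 31 and 40 (WT) and of 46 and 61 (Calu-KO), a scaled ratio of Calu-KO to WT of 1.58 (1.16 to 2.16). Its adjusted p by voom was 0.329. Col17a1, a transmembrane collagen of epithelial attachment, had read counts of 71 and 52 (WT) and of 59 and 45 (Calu-KO). Its groups overlapped. Col8a2, the partner of Col8a1, had read counts of 18 and 28 (WT) and of 17 and 11 (Calu-KO). Col9a3 had read counts of 10 and 11 (WT) and of 7 and 0 (Calu-KO). Col28a1 had read counts of 5 and 9 (WT) and of 1 and 2 (Calu-KO), and Col27a1 had 0 and 1 (WT) and 4 and 10 (Calu-KO). These counts are too low for a statement on direction. The other 7 genes (Col14a1, Col22a1, Col26a1, Col2a1, Col4a3, Col4a4 and Col6a4) had at most 12 reads in any library.

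**Figure D5:**
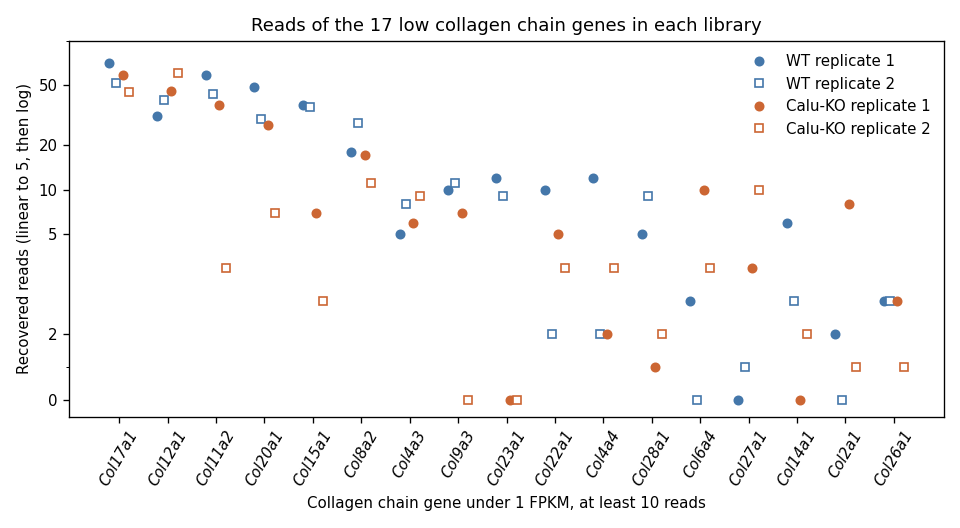
Recovered reads of the 17 collagen chain genes under 1 FPKM with at least 10 reads over the 4 libraries, 1 point per library, on an axis that is linear to 5 and then logarithmic. Col15a1 lies at 37 and 36 reads in WT and at 7 and 3 in Calu-KO, and Col23a1 at 12 and 9 in WT and at 0 in both Calu-KO libraries.

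Several collagen genes lie side by side, and 8 pairs were less than 100 kb apart. Col3a1 (ENSMUSG00000026043, chr1:45311538-45349706, plus strand, mm10) and Col5a2 lie 24614 bases apart on opposite strands. Their log2 changes were -1.62 and -0.18. Col6a1 and Col6a2 lie 85161 bases apart on the same strand of chromosome 10, with log2 changes of -0.14 and -0.61. Col4a1 and Col4a2 overlap by 22 bases on opposite strands, with log2 changes of -0.01 and -0.08. Col4a5, at 7.30 to 9.85 FPKM, lies 1308 bases from Col4a6, which had no reads. The other 4 pairs each held at least 1 gene with under 30 reads in all. Differences between neighbours were not tested.

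The promoter of Col3a1 is shown because Col3a1 was the called gene, a choice made after its values were seen. It is the 250 bases before the start of transcription (RefSeq, GRCm38.p6, chr1:45311288-45311537, plus strand), with the letters CAGAC on either strand in capitals. CAGAC is the core that SMAD factors of the TGF-beta pathway are known to bind.
Col3a1 promoter: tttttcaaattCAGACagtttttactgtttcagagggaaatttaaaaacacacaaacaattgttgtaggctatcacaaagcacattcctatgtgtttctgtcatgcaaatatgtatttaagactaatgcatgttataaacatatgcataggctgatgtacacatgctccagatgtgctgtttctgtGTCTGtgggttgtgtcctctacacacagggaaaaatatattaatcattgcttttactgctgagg
It held 2 such matches. Of all 32851 promoters of this length, 42.2% held at least 1, and 14 of the 35 collagen promoters in the RefSeq table did. Col3a1 had no match to CCAAT (in 33.8% of all promoters, either strand), GGGCGG (32.7%) or TGANTCA (6.75%). GGGCGG was in 21 of the 35 collagen promoters and CCAAT in 12. With 35.2% G and C, the Col3a1 promoter had the lowest content of the 35, whose median was 59.6%, and 5.0% of all promoters were lower. A match is a description of letters, not a site of binding.

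Genes that act on collagens were read from 6 lists of 58 genes in all. Of the 39 tested, 2 rose and 3 fell, with a median log2 change of -0.14. Among all tested genes 0.942% were called higher and 1.83% lower, and the median was 0.01. The enzymes and chaperones of the ER that modify and fold the chains had 15 of 18 genes tested and 0 called, with a median log2 change of -0.17. Serpinh1, the collagen chaperone HSP47, stood at 387.4 and 382.9 FPKM in WT and at 387.0 and 322.7 FPKM in Calu-KO. Its groups overlapped (adjusted p 0.598). Fkbp10, a prolyl isomerase for collagen, had 6.43 and 5.80 FPKM in WT and 10.8 and 10.5 FPKM in Calu-KO (log2 change 0.72 ± 0.11, adjusted p 0.0519). P4ha1, a catalytic subunit of prolyl hydroxylase, had 51.7 and 54.3 FPKM in WT and 37.7 and 36.4 FPKM in Calu-KO (log2 change -0.51, adjusted p 0.0808). Both had groups that did not overlap, in opposite directions, but most tested genes of the list had a log2 change below 0.

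For export and cleavage, 9 of 12 genes were tested, and Sec23a was the 1 called. Sec23a, a subunit of the COPII coat that carries procollagen out of the ER, stood at 21.7 and 22.3 FPKM in WT and at 57.8 and 66.2 FPKM in Calu-KO. It was higher in both Calu-KO libraries, 2.82-fold on average, with a log2 change of 1.45 ± 0.12 (SE) and an adjusted p of 0.0199. The log2 change stayed between 1.34 and 1.55 under 13 alternatives, but with no filter on low values Sec23a was not called. Sec23a lies on chromosome 12, where the 20 tested genes within 5 Mb at lower coordinates had a median log2 change of 0.56, 18 of them above 0. The 7 tested genes at higher coordinates had a median of 0.05. The part of this neighbourhood in the Sec23a change was not tested, and none of the 44 collagen genes lies on chromosome 12. The crosslinking enzymes had 4 of 5 genes tested and 0 called, with a median log2 change of 0.24. Loxl2 had the lowest adjusted p among them (log2 change 0.63, adjusted p 0.0717).

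Of the collagen receptors, 4 of 10 were tested and Mrc2 was the 1 called. Mrc2, the endocytic receptor Endo180 through which fibroblasts take up collagen, stood at 35.1 and 33.6 FPKM in WT and at 9.45 and 10.8 FPKM in Calu-KO. Both Calu-KO libraries were lower, 3.39-fold on average, with a log2 change of -1.67 ± 0.12 (SE) and an adjusted p of 0.0151. The log2 change stayed between -1.77 and -1.58 under 13 alternatives, but with no filter on low values Mrc2 was not called.

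The proteins that bind fibrils and set their width had 6 of 8 genes tested, 1 called higher and 2 lower. Dpt, dermatopontin, stood at 9.25 and 8.73 FPKM in WT and at 0.858 and 0.595 FPKM in Calu-KO. It fell 12.4-fold, with a log2 change of -2.54 ± 0.15 (SE) and an adjusted p of 0.0106. It met the condition for testing through WT, its Calu-KO mean being 0.727 FPKM. Bgn, the small proteoglycan biglycan, stood at 138.8 and 137.7 FPKM in WT and at 66.8 and 78.9 FPKM in Calu-KO. It fell 1.90-fold, with an adjusted p of 0.0412 (limma), and 0.0665 with a filter of 0.1 FPKM. Fmod, fibromodulin, stood at 1.05 and 0.656 FPKM in WT and at 3.40 and 3.15 FPKM in Calu-KO. It rose 3.83-fold, with an adjusted p of 0.0443 (limma), and 0.0706 with a filter of 0.1 FPKM. It met the condition for testing through Calu-KO, its WT mean being 0.854 FPKM. The list thus held changes in both directions, while Dcn and Lum, decorin and lumican, had no reads in any library. Of 5 factors of collagen transcription and mRNA, 1 was tested: Creb3l1, an ER-bound activator of collagen genes, had 24.4 and 23.8 FPKM in WT and 14.1 and 18.4 FPKM in Calu-KO (log2 change -0.55, adjusted p 0.129).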

How the data were processed

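RNA of 2 WT and 2 Calu-KO libraries had been extracted and sequenced as paired-end reads on an Illumina NovaSeq 6000 and aligned with HISAT2 2.0.5 to mm10, per the labels' protocols and the submitters' processing notes. The authors deposited 1 table of FPKM values per gene with gene lengths and coordinates. Not given in the sources used here: counter, annotation and use of strand. Genotype labels gave the groups, and descriptions the replicate numbers. In each library, the product of FPKM and gene length came in whole steps in 100% of values (tolerance 0.001 reads), so reads were recovered: 15635448 and 16033535 in WT, 16510048 and 16038560 in Calu-KO. At this depth 1 read in 1 kb was worth 0.0591 to 0.0684 FPKM.

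Genes averaging 1 FPKM or more (11885) were tested on log2(FPKM + 1), which shrinks the changes of low genes, with limma 3.58.1 in R 4.3.3 (lmFit, eBayes with an intensity trend), two-sided, with Benjamini-Hochberg adjustment over all of them and a threshold of 0.05. Fold differences are ratios of mean FPKM. Steps were tested on simulated data. The named genes were all collagen members, Calu and the partner genes past the threshold, with some that missed it added after values were seen. The members, lists and tests were chosen with earlier results of these data known. Promoters came from RefSeq (35 of 44 members matched) and transcripts from GENCODE M21 (44 matched). Fewer cells of a type and less RNA per cell cannot be told apart in such libraries.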

Additional observations from a re-analysis of the deposited data

How the results depend on the processing

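The direction of every tested collagen gene that was called in any fit was the same in all 13 alternatives, except for Col6a3. Counts of calls depended on the filter, the library left out and the model. For collagen genes (0 higher and 1 lower), no filter on low values gave 0 lower. In that fit 8 of 40 collagen genes had an unadjusted p under 0.05, against 15.9% of all its genes. Limma voom on recovered reads gave 1 higher and 2 lower, and with at least 10 reads 1 and 3. For all genes (112 higher and 217 lower), the filter of 0.1 FPKM gave 29 and 99, and 31 and 95 with a pseudocount of 0.1. No filter gave 0 and 0, with 3886 genes at an unadjusted p under 0.05. Rescaling by total reads gave 45 higher, and moved the median log2 change of the tested collagen genes from -0.08 to -0.19 and that of all genes to -0.09. Voom gave 361 and 469, and with at least 10 reads 461 and 671. For the partner genes (2 higher and 3 lower), the filter of 0.1 FPKM with either pseudocount, the pseudocount of 0.1 alone and total reads each gave 1 higher. No filter gave 0 and 0, and both voom fits gave 4 higher. The cause of these shifts was not tested.

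Leaving out 1 library gave 0 to 4 collagen genes higher and 0 to 4 lower, 8 to 2926 of all genes higher and 34 to 2805 lower, and 0 to 10 partner genes higher and 1 to 17 lower. The lowest counts came without a WT library and the highest without Calu-KO replicate 1, which for collagen genes lower equalled that without Calu-KO replicate 2. The log2 ratio of the summed collagen FPKM was 0.13, and 0.01 to 0.23 in such fits. With the replicate number as a block, 181 genes were higher and 312 lower, 314 of the 329 calls were kept, and Col3a1 had an adjusted p of 0.00516. The labels state no pairing of the same-numbered libraries. The correlation of same-numbered deviations over the tested genes was 0.0153. It rests on a single difference per group, so it cannot tell whether the libraries were paired. The planned count tests (edgeR and DESeq2) were not run, since the deposited unit is FPKM, and voom stood in for them. At this depth genes with under 10 reads over the 4 libraries were given no direction.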
